A study of Mus musculus with 15 samples.

Results

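The jejunal epithelium of adult mice labelled Gata4 cKO, a conditional knockout, was compared with the jejunal epithelium of adult wild-type CD1 mice. The members are the 3 arrays titled for cKO jejunum and the 3 titled for jejunum, 6 of the 15 arrays in the series. The other arrays, 3 in each group, hold adult Gata4 cKI ileum (a conditional knockin), adult control ileum and wild-type CD1 ileum. All 15 arrays were made from RNA of epithelial cells isolated from the small intestine. The labels name no jejunal control for the cKO mice, and they give neither the strain of the cKO, cKI and control mice, nor the promoter that drives the recombination, nor the part of Gata4 that the cKO allele lacks. Genotype and set of mice therefore cannot be told apart in any difference between the cKO-labelled and the wild-type jejunum. The labels leave unstated whether the arrays within a group are separate animals, and a p-value then reflects no more than the spread of these arrays, whose technical part is not known.

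Gata4 encodes a zinc finger transcription factor that binds GATA motifs and is expressed in the proximal small intestine, but hardly in the terminal ileum. The jejunum is the main site of fat, sugar and folate absorption, whereas the ileum recovers bile acids through the apical transporter Slc10a2, the carrier Fabp6 and the basolateral exporter Slc51a with Slc51b. Bile acids that enter the ileal enterocyte activate the receptor Nr1h4 (FXR), which induces the hormone Fgf15, a brake on bile acid synthesis in the liver. The comparison shows which genes differ between the cKO-labelled and the wild-type jejunum. Whether they depend on Gata4 cannot be told apart from the set of mice.

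Values are the deposited log2 levels, and a gene was tested when the largest of its 5 group means exceeded 4.91, the median of the whole table. Of 19938 genes with a symbol, 11784 were tested. Differences are the cKO-labelled minus the wild-type jejunum on the log2 scale, ± the standard error from limma, and p-values, also from limma, were adjusted by the Benjamini-Hochberg method across the tested genes. A gene is called, and said to have risen or fallen, at an adjusted p under 0.05. Folds are left out for genes with a group mean under 4.91. Because the tissue was a preparation of many cells, fewer cells of a type and less RNA per cell cannot be told apart.

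Gata4 itself did not have a lower level in the cKO-labelled arrays. Its levels there were 9.72, 9.88 and 9.93, against 9.68, 9.45 and 9.47 in wild-type jejunum. The difference was 0.31 ± 0.18 (adjusted p = 0.322), while wild-type ileum averaged 5.6 ± 0.34 (SD, n = 3). The table holds 1 value for the whole gene, and whether its probes lie inside the deleted part is not known here, so this level does not check the genotype labels. The arrays are called cKO-labelled throughout, and every direction below rests on that label. Neither Gata5 (0.23 ± 0.18, adjusted p = 0.473) nor Gata6 (-0.20 ± 0.10, adjusted p = 0.233), the other GATA factors of the gut epithelium, was called. Zfpm1, a cofactor that binds GATA proteins, fell by 0.67 ± 0.14 (adjusted p = 0.00542).

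Genes that define epithelial cells were present in both groups: Epcam was at 10.63, 10.38 and 10.46 in the cKO-labelled arrays, against 10.38, 10.41 and 10.4 in wild-type jejunum. Epcam, Vil1 and Cdh1 were not called, with differences of 0.09, -0.08 and 0.24. Of 12 tested epithelial genes 3 rose and 0 fell, where 5.17% of all tested genes rose, and the median was 0.04. The risers were the keratins Krt18, Krt19 and Krt8 (0.87, 0.45 and 0.39), and 2 rose in a fit of the 6 jejunal arrays alone. The call of Krt8 was lost when any 1 jejunal array other than cKO-labelled replicate 3 was left out (adjusted p from 0.0526 to 0.0661 by limma). Correlations over all tested genes were 0.970, 0.970 and 0.983 between cKO-labelled arrays, 0.984 to 0.989 between wild-type jejunal arrays and 0.939 to 0.954 between the groups. The lower pair of values among the cKO-labelled arrays both involve replicate 1, which stood apart on the second principal component. Between the control and the wild-type ileum, to which the labels assign no Gata4 allele, 3290 genes were called, 27.9% of those tested. The part of such differences between sets of mice in the cKO comparison was not tested.

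Promoters of 4 genes that moved far, 2 upward and 2 downward, are printed from RefSeq (mouse build GRCm38.p6, 250 bases before to 50 after the annotated start, 5′ to 3′ on the gene's strand). Capitals mark matches on either strand to the GATA motif (AGATAA or TGATAA, or either of them with G as its last base), to the CDX motif TTTATG and to the HNF4 motif CAAAGTNCA. Fabp6 lies at chr11:43601513-43601812 on the minus strand, Slc10a2 at chr8:5105238-5105537 on the minus strand, Lct at chr1:128328269-128328568 on the minus strand and Cyp2b10 at chr7:25897408-25897707 on the plus strand.
Fabp6: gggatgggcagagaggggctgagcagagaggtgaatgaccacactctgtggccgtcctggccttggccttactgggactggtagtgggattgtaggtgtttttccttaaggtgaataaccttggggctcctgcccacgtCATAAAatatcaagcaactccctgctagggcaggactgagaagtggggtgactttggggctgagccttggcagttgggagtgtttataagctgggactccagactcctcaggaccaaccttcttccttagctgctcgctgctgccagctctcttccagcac
Slc10a2: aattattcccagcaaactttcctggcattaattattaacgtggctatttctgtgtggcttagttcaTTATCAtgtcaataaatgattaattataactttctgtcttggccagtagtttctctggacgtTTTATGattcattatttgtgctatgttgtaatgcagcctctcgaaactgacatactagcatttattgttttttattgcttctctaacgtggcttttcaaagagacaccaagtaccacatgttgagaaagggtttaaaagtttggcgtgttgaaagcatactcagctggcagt
Lct: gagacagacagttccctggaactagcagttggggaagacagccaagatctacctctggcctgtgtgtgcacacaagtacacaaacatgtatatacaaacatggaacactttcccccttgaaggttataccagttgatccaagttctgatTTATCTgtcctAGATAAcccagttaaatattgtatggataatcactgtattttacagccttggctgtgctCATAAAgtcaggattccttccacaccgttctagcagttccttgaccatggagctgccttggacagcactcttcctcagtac
Cyp2b10: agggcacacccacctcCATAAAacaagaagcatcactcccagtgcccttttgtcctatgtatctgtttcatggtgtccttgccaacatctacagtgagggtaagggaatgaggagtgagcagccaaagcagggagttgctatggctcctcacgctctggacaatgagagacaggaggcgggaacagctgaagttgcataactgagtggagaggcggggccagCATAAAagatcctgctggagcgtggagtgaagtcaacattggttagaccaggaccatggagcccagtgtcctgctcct

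Lct held 2 GATA matches, Slc10a2 held 1, and Fabp6 and Cyp2b10 held 0 in these windows. A CDX match was present in all 4 windows, with 2 in Cyp2b10, and an HNF4 match in none of them. The table held 646 windows for 472 genes that rose, 941 windows for 740 genes that fell and 11933 windows for 9428 tested genes. A GATA match stood in 23.7% of the windows of risen genes and 20.7% of those of fallen genes, against 19.0% of the windows of tested genes. For CDX the shares of windows were 8.36% for risen and 7.44% for fallen genes, against 6.69% for tested genes. For HNF4 they were 1.86% and 2.34% of windows, against 1.31% for tested genes. Such matches describe the letters and do not show binding.

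In all, 609 genes rose and 901 fell, 5.17% and 7.65% of those tested, or 12.8% in both directions together. The shares of 5.17% and 7.65% are the background for every list count below, also where they are not repeated. The falls were 542 without wild-type jejunum replicate 1, 548 without wild-type jejunum replicate 2 and 566 in a fit of the 6 jejunal arrays alone. At least 2-fold changes were 150 rises (1.27%) and 239 falls (2.03%). Risen genes made up 40.3% of the calls, and 51.2% after quantile normalization of the arrays. The median difference over all genes was -0.03. In 1334 genes (11.3%) every cKO-labelled array lay above every wild-type jejunal array, and in 1867 (15.8%) every one lay below.

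**Figure D1:**
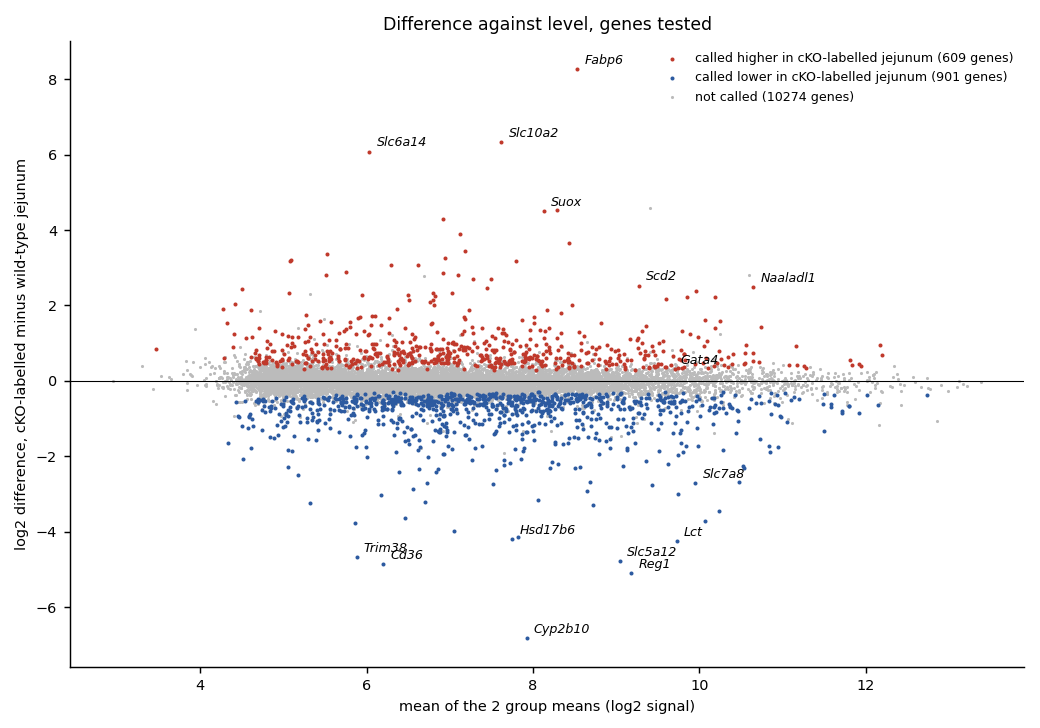
Log2 difference, cKO-labelled minus wild-type jejunum (y axis), against the mean of the 2 group means (x axis, log2 signal), 1 point per tested gene. Red points are the 609 genes called higher, blue points the 901 called lower and grey points the rest; Fabp6 sits highest at 8.27 and Cyp2b10 lowest at -6.82.

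Genes of bile acid recovery rose together. Of 11 tested members of that list 8 rose and 1 fell, with a median difference of 1.29, against -0.03 over all genes. Between the control and the wild-type ileum 4 of the 11 were called higher and 3 lower. Over all tested genes 19.3% were higher and 8.61% lower there. Fabp6, the cytosolic bile acid carrier of the ileum, was at 12.88, 12.46 and 12.67 in the cKO-labelled arrays, against 4.08, 4.93 and 4.18 in wild-type jejunum. All 3 cKO-labelled arrays were far above all 3 wild-type ones, and lay beside the wild-type ileum, where the level was 12.68 ± 0.16 (SD, n = 3). Its difference was 8.27 ± 0.24 (adjusted p = 2.67e-11). Slc10a2, the sodium-dependent transporter that takes bile acids up from the lumen, was at 10.94, 10.6 and 10.81 in the cKO-labelled arrays, against 5.07, 4.55 and 3.73 in wild-type jejunum. Here too the groups were wide apart, by 6.34 ± 0.29 (adjusted p = 4.51e-09). Slc10a2 differed by -1.12 ± 0.29 (adjusted p = 0.0105) between the control and the wild-type ileum. In wild-type jejunum both genes averaged below the level filter, so the differences depend on levels that were not told from background here.

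The remaining members of the pathway moved less. Slc51a, a chain of the basolateral exporter, rose by 1.6 ± 0.19 (3.04-fold), and its partner Slc51b by 1.44 ± 0.22 (2.72-fold). Nr1h4 was at 9.0, 9.15 and 9.45 in the cKO-labelled arrays, against 7.78, 8.08 and 7.89 in wild-type jejunum, a 2.44-fold rise of 1.29 ± 0.16 without overlap. Nr0b2, the repressor SHP that FXR induces, rose by 1.00 ± 0.20. Fgf15 levels were 9.36, 6.72 and 8.4 in the cKO-labelled arrays, against 5.33, 4.75 and 5.15 in wild-type jejunum, with a difference of 3.08 ± 0.63 (adjusted p = 0.00436). The spread among the 3 cKO-labelled arrays was wide, yet each was above every wild-type jejunal array. The member that fell was Cyp27a1, a sterol hydroxylase (-1.32 ± 0.26, adjusted p = 0.00358). Abcc2 and Abcc3, ATP-driven exporters, were not called (0.28 and 0.32).

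**Figure D2:**
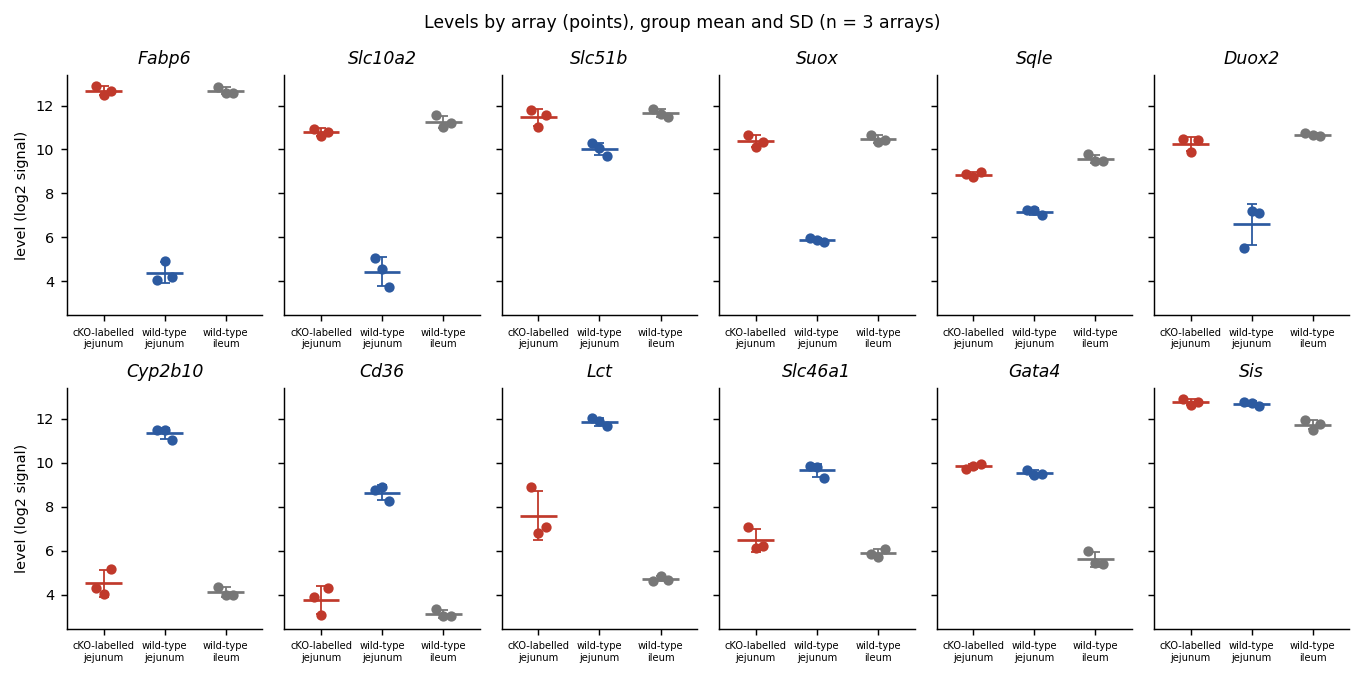
Log2 level (y axis) of 12 genes in each array of the cKO-labelled jejunum, the wild-type jejunum and the wild-type ileum (x axis), with 1 point per array, a line at the mean and a bar for the SD (n = 3). Fabp6, Slc10a2 and Suox lie near the wild-type ileum's levels in the cKO-labelled jejunum, Cyp2b10 and Cd36 lie low in both, and Gata4 is low in the ileum alone.

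Ileal markers beyond bile acids also rose. In the list of ileal textbook genes, which shares 5 members with the bile acid list, 13 of 18 rose and 0 fell, with a median difference of 1.37. Over all tested genes 5.17% rose and 7.65% fell, and this list too was chosen with earlier results of these data known. Naaladl1, an ileal peptidase, rose 5.59-fold (2.48 ± 0.21), and Plb1, a brush border phospholipase, 4.27-fold (2.09 ± 0.46). Osr2, a zinc finger factor, rose by 1.33 ± 0.16, and Guca2a, the peptide guanylin, by 1.42 ± 0.17. Cubn, which takes up the cobalamin complex in the ileum, had levels of 11.36, 10.8 and 10.43 in the cKO-labelled arrays, against 10.14, 9.85 and 8.88 in wild-type jejunum. Its difference of 1.24 ± 0.47 was not called (adjusted p = 0.107), nor was any other of the 7 tested genes of cobalamin uptake, with 1 called without cKO-labelled jejunum replicate 1.

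Sulfur and phosphate handling held further large rises. Suox, sulfite oxidase, was at 10.67, 10.13 and 10.36 in the cKO-labelled arrays, against 5.96, 5.89 and 5.78 in wild-type jejunum. No array overlapped, and the rise was 22.7-fold (4.51 ± 0.15, adjusted p = 1e-10). Slc13a1, a sodium sulfate cotransporter, rose 4.71-fold (2.23 ± 0.26), and Slc26a2, another sulfate transporter, by 1.17 ± 0.26. Slc34a2, the intestinal phosphate transporter, rose 5.19-fold (2.37 ± 0.37). In the list of ion and anion transport, which also holds the enzyme Suox, 6 of 22 genes rose and 2 fell. Among the falls was Slc28a1, a nucleoside carrier, which fell 5.16-fold (-2.37 ± 0.43). The falls were 1 without cKO-labelled jejunum replicate 2 or any 1 of the 3 wild-type jejunal arrays.

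Jejunal markers fell: in the list of jejunal textbook genes 10 of 17 fell and 0 rose, with a median difference of -1.17. Over all tested genes 7.65% fell and 5.17% rose. This list was chosen with earlier results of these data known, and it shares Cyp2b10 with the cytochrome P450 list. Some enzymes of xenobiotic metabolism were among the falls. Cyp2b10, a cytochrome P450 induced by the receptor CAR, was at 4.32, 4.04 and 5.18 in the cKO-labelled arrays, against 11.49, 11.48 and 11.03 in wild-type jejunum. This was the largest fall of the 901, with a difference of -6.82 ± 0.33 (adjusted p = 5.54e-09), and the cKO-labelled mean lay below the level filter. CAR itself, Nr1i3, was at 5.98, 5.72 and 6.19 in the cKO-labelled arrays and at 7.8, 8.24 and 7.66 in wild-type jejunum, 3.82-fold lower (-1.93 ± 0.20). Nr1i3 differed by 1.01 ± 0.20 (adjusted p = 0.00184) between the control and the wild-type ileum. Of 19 cytochrome P450 genes 8 fell and 1 rose (median -0.29), and the falls were 4 without cKO-labelled jejunum replicate 2 or wild-type jejunum replicate 1 and 5 without wild-type jejunum replicate 2. Cyp1a1, the target of the aryl hydrocarbon receptor, was among them (-2.29 ± 0.26). In the list of conjugation enzymes, which also holds a carboxylesterase, 9 of 25 fell and 1 rose (median -0.28). The falls included Ugt2a3, a glucuronosyltransferase (-1.53 ± 0.28, and 1.56 ± 0.28 between the control and the wild-type ileum), and Gstt1, a glutathione transferase (-1.42 ± 0.21). The riser was that carboxylesterase, Ces2a, which is not a conjugation enzyme (1.46 ± 0.37, adjusted p = 0.0165). Its adjusted p was 0.0618 without cKO-labelled jejunum replicate 1, 0.0611 without wild-type jejunum replicate 2 and 0.0511 without wild-type jejunum replicate 3.

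Genes of fat absorption were called lower in part, with no rise among them. Cd36, a fatty acid translocase, was at 3.9, 3.07 and 4.32 in the cKO-labelled arrays, against 8.74, 8.91 and 8.26 in wild-type jejunum. Every cKO-labelled array was below the level filter, and the difference was -4.87 ± 0.36 (adjusted p = 6.73e-07). Fabp1, the liver-type fatty acid carrier, was at 8.52, 7.52 and 9.51 in the cKO-labelled arrays, against 12.23, 11.89 and 11.75 in wild-type jejunum. That is 10.8-fold lower (-3.44 ± 0.64), and still above the wild-type ileum by 4.75 ± 0.64 (adjusted p = 0.000724). In fatty acid uptake 5 of 11 genes fell and 0 rose, among them Slc27a2, which activates very long chain fatty acids (-2.12 ± 0.16), and Scarb1, a lipid receptor (-1.28 ± 0.19). Fabp2, the intestinal carrier, was not called (-0.22 ± 0.24, adjusted p = 0.632).

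In triglyceride and chylomicron assembly 9 of 18 genes fell and 0 rose (median -0.63). The count was 5 without cKO-labelled jejunum replicate 2, wild-type jejunum replicate 1 or wild-type jejunum replicate 2. Dgat2, which makes triglycerides, fell 2.4-fold (-1.26 ± 0.20). Mttp, which loads lipid onto apolipoprotein B (-0.84 ± 0.18), and Plin2, a coat protein of lipid droplets (-0.75 ± 0.17), fell as well. Apoa4, the apolipoprotein of the fed enterocyte, differed by -1.07 ± 0.55 and was not called (adjusted p = 0.241, and 0.0258 in a fit of the 6 jejunal arrays alone). Fatty acid oxidation had 6 of 18 genes lower and 1 higher, and the rise was lost when any 1 jejunal array other than cKO-labelled replicate 1 was left out. Its falls were 3 without wild-type jejunum replicate 1 and 4 without cKO-labelled jejunum replicate 2. Pdk4, a kinase that spares glucose, fell by 1.84 ± 0.25.

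Sugar genes fell in part. Lct, lactase, was at 8.9, 6.81 and 7.08 in the cKO-labelled arrays, against 12.04, 11.88 and 11.66 in wild-type jejunum. The groups did not overlap, the fall was 19.2-fold (-4.26 ± 0.60, adjusted p = 0.000224), and cKO-labelled replicate 1 was the highest of its group. Lct stayed above the wild-type ileum by 2.87 ± 0.60 (adjusted p = 0.0115). Treh, trehalase, fell by 1.65 ± 0.35, so that 2 of 4 disaccharidases fell and 0 rose. Sis, sucrase-isomaltase, and Mgam, maltase-glucoamylase, differed by 0.09 ± 0.22 (adjusted p = 0.854) and 0.11 ± 0.12 (adjusted p = 0.633). Of 9 sugar transporters 5 fell and 0 rose (median -1.39). Slc2a5, the fructose transporter, fell 3.46-fold (-1.79 ± 0.39), Slc2a7 5.3-fold (-2.41 ± 0.29), and Slc5a4a, a member of the sodium glucose carrier family, fell too (-3.02 ± 0.43). Slc5a1, the apical glucose transporter, and Slc2a2, the basolateral one, were not called (-0.51 ± 0.27, adjusted p = 0.264, and -1.39 ± 0.48, adjusted p = 0.0735); Slc2a2 was called without cKO-labelled jejunum replicate 1 (0.0491) and in a fit of the 6 jejunal arrays alone (0.0322).

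Among 9 genes of fructose breakdown and gluconeogenesis 3 fell and 0 rose. Pck1, which commits oxaloacetate to glucose, was at 7.69, 6.6 and 6.93 in the cKO-labelled arrays, against 10.53, 11.03 and 9.56 in wild-type jejunum, 9.83-fold lower (-3.3 ± 0.42, adjusted p = 9.45e-05). Khk, ketohexokinase, fell by 0.85 ± 0.20 (adjusted p = 0.00982), with an adjusted p of 0.0526 without cKO-labelled jejunum replicate 2 and 0.0519 without wild-type jejunum replicate 1.

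Folate and retinoid genes were among the falls. Slc46a1, the proton-coupled folate transporter, was at 7.09, 6.14 and 6.2 in the cKO-labelled arrays, against 9.84, 9.82 and 9.29 in wild-type jejunum, 9.02-fold lower (-3.17 ± 0.23, adjusted p = 5.4e-07). In the 9 iron and folate genes 2 fell and 1 rose, with 1 fall without cKO-labelled jejunum replicate 2 or wild-type jejunum replicate 1, the riser being Slc40a1, the iron exporter ferroportin (1.8 ± 0.42, adjusted p = 0.0107), with an adjusted p of 0.057 without wild-type jejunum replicate 1. Of 14 retinoid genes 5 fell and 1 rose. Lrat, which makes retinyl esters, fell 4.27-fold (-2.1 ± 0.18), Rdh7, a retinol dehydrogenase, 4.6-fold (-2.2 ± 0.35), and Adh1, an alcohol dehydrogenase, 4.78-fold (-2.26 ± 0.38). Rdh7 and Adh1 differed by 1.93 ± 0.35 and 1.46 ± 0.38 between the control and the wild-type ileum.

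Amino acid carriers and peptidases went both ways. Slc6a14, a carrier of neutral and basic amino acids, was at 8.54, 8.99 and 9.68 in the cKO-labelled arrays, against 2.88, 3.09 and 3.02 in wild-type jejunum. Wild-type jejunum lay below the level filter in each array, and the difference was 6.08 ± 0.71 (adjusted p = 4.73e-05). The control ileum differed from the wild-type ileum by -4.31 ± 0.71 (adjusted p = 0.000523), so this gene also varied between those sets of mice. Among the 18 amino acid carriers 4 rose and 4 fell, where 5.17% and 7.65% of all tested genes did. The rises were 2 without cKO-labelled jejunum replicate 2, wild-type jejunum replicate 1 or wild-type jejunum replicate 2. Slc7a8, a basolateral exchanger, fell 6.59-fold (-2.72 ± 0.25), and Slc36a1, a proton-coupled carrier, 6.37-fold (-2.67 ± 0.26). Slc1a1, a glutamate carrier, rose by 1.2 ± 0.11. In 10 brush border peptidases 3 rose and 1 fell, with 2 falls without cKO-labelled jejunum replicate 3. Mep1a, meprin alpha, rose 4.68-fold (2.23 ± 0.24), and Ace, the angiotensin-converting enzyme, fell 6.48-fold (-2.7 ± 0.40).

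**Figure D3:**
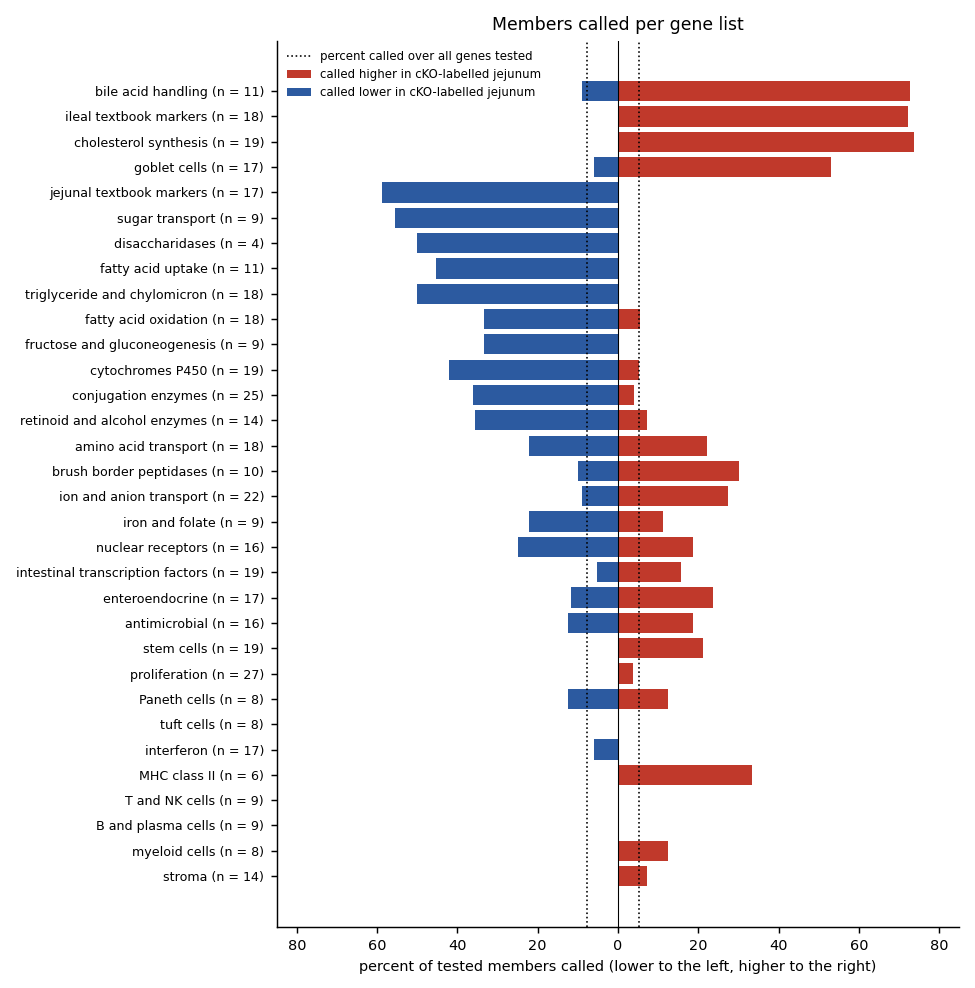
Percentage of the tested members of each gene list (rows, n tested members) called higher (red, to the right) or lower (blue, to the left) in cKO-labelled against wild-type jejunum. Dotted lines mark the 5.17% and 7.65% called over all tested genes; red bars are longest for the bile acid, ileal and cholesterol lists, and blue bars for the jejunal and sugar transport lists, followed by a tie of the triglyceride list and the disaccharidases.

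Cholesterol synthesis rose as a list, with 14 of 19 genes higher, 0 lower and a median of 0.74. Sqle, squalene epoxidase, was at 8.87, 8.74 and 8.97 in the cKO-labelled arrays, against 7.24, 7.27 and 7.0 in wild-type jejunum, 3.23-fold higher (1.69 ± 0.17, adjusted p = 9.78e-06). Cyp51, a sterol demethylase, rose by 1.41 ± 0.16, Hmgcs1, which makes the first committed intermediate, by 1.06 ± 0.12, and Srebf2, the transcription factor of the pathway, by 0.74 ± 0.11. The groups did not overlap for Sqle or Cyp51. Scd2, a fatty acid desaturase outside the list, rose 5.76-fold (2.53 ± 0.12).

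Of 19 intestinal transcription factors 3 rose and 1 fell, where 5.17% and 7.65% of all tested genes did. Foxa1, a forkhead factor, was at 8.43, 8.3 and 8.15 in the cKO-labelled arrays, against 7.05, 7.02 and 7.12 in wild-type jejunum, a rise of 1.23 ± 0.12 (adjusted p = 1.04e-05). Foxa1 differed by -0.59 ± 0.12 between the control and the wild-type ileum. Hnf4a and Hnf4g, receptors that drive enterocyte genes, differed in opposite directions (0.43 ± 0.12, adjusted p = 0.025, and -0.44 ± 0.13, adjusted p = 0.0345). Neither held throughout: Hnf4a was at an adjusted p of 0.0789 without cKO-labelled jejunum replicate 1, 0.0833 without wild-type jejunum replicate 2 and 0.0689 without wild-type jejunum replicate 3, and Hnf4g at 0.128 without cKO-labelled jejunum replicate 2, 0.0733 without cKO-labelled jejunum replicate 3, 0.167 without wild-type jejunum replicate 2 and 0.0576 without wild-type jejunum replicate 3. Cdx2, which specifies the intestine, was not called (0.10 ± 0.17, adjusted p = 0.78). In the list of nuclear receptors, which also holds a coactivator, 3 of 16 genes rose and 4 fell. Besides Nr1i3 the falls were Ppargc1a, a coactivator of mitochondrial genes (-1.52 ± 0.21), Ppara, the fatty acid sensor (-0.73 ± 0.16), and Nr1h3, an oxysterol receptor (-0.67 ± 0.18), the last with an adjusted p of 0.105 without cKO-labelled jejunum replicate 2, 0.0995 without wild-type jejunum replicate 1 and 0.0748 without wild-type jejunum replicate 2. Vdr, the vitamin D receptor, differed by -0.07 ± 0.13 (adjusted p = 0.812).

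Genes of secretory lineages were called in part. Of 17 goblet cell genes 9 rose and 1 fell, where 5.17% and 7.65% of all tested genes did. Their median was 0.42, and 5 rose in a fit of the 6 jejunal arrays alone. Gcnt3, a glycosyltransferase of mucin cores, rose by 0.86 ± 0.14, Atoh1, which specifies secretory cells, by 0.59 ± 0.10, and Clca1, a goblet cell metalloprotease, by 0.70 ± 0.12. The faller was Ang4, an antimicrobial ribonuclease of Paneth and goblet cells (-1.49 ± 0.20). Among 8 Paneth cell genes 1 rose, but not without cKO-labelled jejunum replicates 2 or 3 or wild-type jejunum replicates 1 or 3, and 1 fell, and in 8 tuft cell genes 0 did. The array holds 15 genes of the tuft list, and those not tested, Pou2f3 among them, did not pass the level filter. In the 17 enteroendocrine genes 4 rose and 2 fell, with 1 fall without cKO-labelled jejunum replicate 3 and 0 without cKO-labelled jejunum replicates 1 or 2 or wild-type jejunum replicates 1 or 2. Ghrl, ghrelin, was at 8.06, 8.36 and 8.09 in the cKO-labelled arrays, against 6.41, 6.63 and 5.84 in wild-type jejunum, 3.66-fold higher (1.87 ± 0.21, adjusted p = 2.76e-05). Nts, neurotensin, Pyy and Gcg, hormones of the distal gut, rose by 1.64 ± 0.27, 1.28 ± 0.27 and 1.25 ± 0.29, and Nts differed by 1.57 ± 0.27 between the control and the wild-type ileum. Gip, of proximal K cells, differed by 2.41 ± 0.31 between the control and the wild-type ileum. In the cKO-labelled jejunum it fell by 1.13 ± 0.31 (adjusted p = 0.0262), with an adjusted p of 0.0759 without cKO-labelled jejunum replicate 1, 0.0524 without cKO-labelled jejunum replicate 2, 0.0536 without cKO-labelled jejunum replicate 3, 0.0813 without wild-type jejunum replicate 1 and 0.092 without wild-type jejunum replicate 2.

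In the stem cell list 4 of 19 genes rose, where 5.17% of all tested genes did, and 0 fell. The rises were 7 without cKO-labelled jejunum replicate 1, after quantile normalization or with array weights, and 2 without cKO-labelled jejunum replicates 2 or 3 or wild-type jejunum replicates 1 or 2. Cd44, a Wnt target, rose by 0.94 ± 0.18, and Axin2, a feedback inhibitor of Wnt, by 0.66 ± 0.14. Lgr5, the Wnt-dependent stem cell receptor, was not called (0.52 ± 0.17, adjusted p = 0.0609, and 0.00672 without cKO-labelled jejunum replicate 1). Of 27 proliferation genes 1 rose, Ccnd1 (0.91 ± 0.19), and 0 fell, a share below the 5.17% of all genes, with 3 rises without cKO-labelled jejunum replicate 1.

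Some host defence genes were among the largest changes. Of 16 antimicrobial genes 3 were higher and 2 lower, with a median of 0.09, where 5.17% and 7.65% of all tested genes were. Duox2, an epithelial oxidase, was at 10.46, 9.9 and 10.43 in the cKO-labelled arrays, against 5.52, 7.19 and 7.1 in wild-type jejunum, 12.7-fold higher (3.66 ± 0.39, adjusted p = 2.1e-05). Its partner Duoxa2 rose 15-fold (3.9 ± 0.46), and Nos2, which makes nitric oxide, 11-fold (3.45 ± 0.36). Reg1, a secreted lectin of the upper intestine, was at 6.61, 6.91 and 6.35 in the cKO-labelled arrays, against 10.87, 12.25 and 12.07 in wild-type jejunum, 34.4-fold lower (-5.11 ± 0.36, adjusted p = 4.94e-07). The control ileum was higher than the wild-type ileum in Reg1 by 1.72 ± 0.36. Gsdmc2 and Gsdmc4, gasdermin C genes of the epithelium that share sequence, rose by 2.34 ± 0.26 and 3.08 ± 0.65, and the alarmin Il33 fell by 2.33 ± 0.30. In the gasdermin and alarmin list 3 of 9 genes rose and 1 fell, with 2 falls without cKO-labelled jejunum replicate 1. Because gasdermin C genes are near copies, signal between them could be shared. In the interferon list all 17 tested differences lay below 0, with a median of -0.56 against -0.03 over all genes. Of these 1 was called, Ifih1 (-0.59 ± 0.16, adjusted p = 0.0247), with an adjusted p of 0.104 without cKO-labelled jejunum replicate 2, 0.0793 without wild-type jejunum replicate 1 and 0.092 without wild-type jejunum replicate 3. With a stromal covariate 8 of the 17 fell. Between the control and the wild-type ileum 8 of the 17 were called higher and 0 lower, with a median of 0.78. Over all tested genes 19.3% were higher and 8.61% lower there, so this list also varied between those sets of mice. Class II genes had 2 of 6 higher, H2-Aa (0.99 ± 0.20, and 0.92 ± 0.20 between the control and the wild-type ileum) and Cd74 (1.05 ± 0.24, adjusted p = 0.00934), the second with an adjusted p of 0.0519 without wild-type jejunum replicate 1. H2-Ea, a class II chain with a null allele in several mouse strains, rose by 3.18 ± 0.67 (adjusted p = 0.00522) and differed by 1.6 ± 0.67 (adjusted p = 0.088) between the control and the wild-type ileum.

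**Figure D4:**
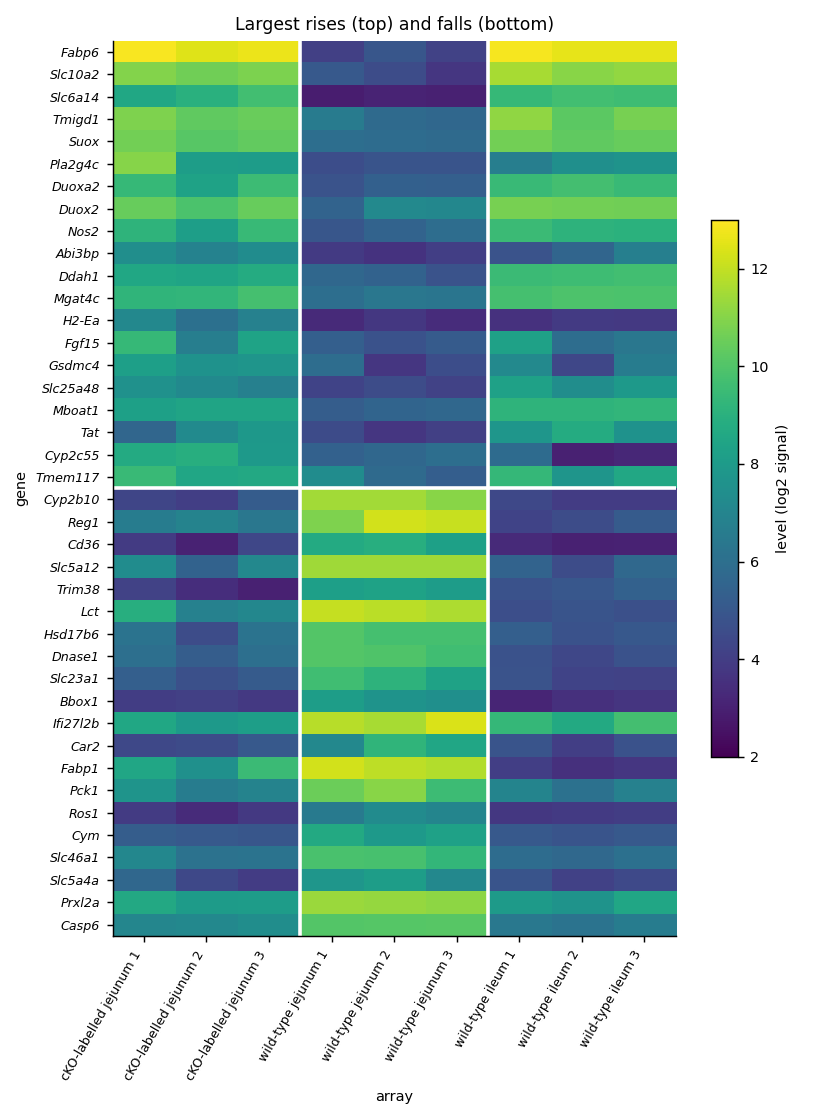
Heat map of the log2 level (colour) of the 20 largest rises, above the white line, and the 20 largest falls, below it, in each array of the cKO-labelled jejunum, the wild-type jejunum and the wild-type ileum (columns). For Fabp6, Suox and Cyp2b10 the cKO-labelled columns look like those of the wild-type ileum, whereas Cyp2c55 and H2-Ea are higher in the cKO-labelled jejunum than in either wild-type region.

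Several of the largest changes belong to no list above. Tmigd1, an immunoglobulin-domain membrane protein of epithelia, rose 23.4-fold (4.55 ± 0.30). Pla2g4c, a cytosolic phospholipase A2, was at 11.0, 8.12 and 8.08 in the cKO-labelled arrays, against 4.6, 4.87 and 4.86 in wild-type jejunum, and the difference was 4.29 ± 0.55. Ddah1, which breaks down methylated arginines, rose by 3.25 ± 0.24, and Tat, tyrosine aminotransferase, by 2.82 ± 0.67 (adjusted p = 0.0116), with an adjusted p of 0.0509 without wild-type jejunum replicate 2. On the other side, Slc5a12, a monocarboxylate carrier, fell 27.5-fold (-4.78 ± 0.67), and Hsd17b6, a steroid dehydrogenase, 18.3-fold (-4.2 ± 0.36). Dnase1, Slc23a1, a vitamin C transporter, and Bbox1, which completes carnitine synthesis, fell as well (-4.13 ± 0.41, -3.98 ± 0.37 and -3.77 ± 0.19). Casp6, a caspase, fell by 2.92 ± 0.13, and differed by 0.79 ± 0.13 between the control and the wild-type ileum.

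Some levels lay beyond both wild-type regions. Cyp2c55, a cytochrome P450 of the distal gut, was at 8.71, 8.9 and 7.9 in the cKO-labelled arrays, against 5.43, 5.68 and 5.95 in wild-type jejunum, and exceeded the wild-type ileum by 4.47 ± 0.57 (adjusted p = 0.000487). S100g, the calcium carrier calbindin-D9k, rose by 1.88 ± 0.39 against wild-type jejunum and by 3.18 ± 0.39 against wild-type ileum. Ghrl exceeded the ileum by 2.45 ± 0.21, Nts by 1.64 ± 0.27 and Mt1, a metal-binding protein, by 1.52 ± 0.18 after a rise of 0.96 ± 0.18 over the jejunum. These comparisons share the cKO-labelled arrays with each other. Nts was also higher in the control than in the wild-type ileum, by the difference given above. Mt1 differed by -0.95 ± 0.18 between the control and the wild-type ileum.

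Few markers of other cells were called, and stromal genes lay higher. In the lists of T and NK cells and of B and plasma cells 0 of 9 genes each were called, and in 8 myeloid genes 1 rose, Cd14 (0.99 ± 0.17). The array holds 13 genes of the T and NK list and 11 of the myeloid list, and those not tested did not pass the level filter. All 14 tested stromal differences were above 0, with a median of 0.37 against -0.03 over all genes. Of these 1 was called, Pdgfrb (0.84 ± 0.13), and 2 in a fit of the 6 jejunal arrays alone or without cKO-labelled jejunum replicate 3. In the fit of 6 arrays the second was Acta2, smooth muscle actin (0.72, adjusted p = 0.00604). The mean level over the list was 5.33, 5.38 and 5.11 in the cKO-labelled arrays and 4.86, 4.85 and 5.09 in wild-type jejunum, so that every cKO-labelled array lay above every wild-type one. The part of stromal cells in the changes above was not tested beyond a fit with that mean as a covariate, which left 606 rises and 813 falls. Lyve1, of lymphatic endothelium, was not called (adjusted p = 0.994). It was the only gene tested among 9 endothelial and glial genes on the array. The others did not pass the level filter, so these cells were hardly measured. Immediate early and isolation stress genes had 0 of 16 called.

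Some of the genes called in the cKO comparison were called in the opposite direction in the cKI ileum. The cKI ileum, compared with the control ileum, shares no array with the cKO comparison. Both come from 1 fit of all 15 arrays, however, so a gene has the same standard error in both. The calls in the 2 comparisons are therefore not independent, and their overlap was not tested. Of the 50 genes that fell in cKI ileum (0.424% of those tested), 33 had risen in the cKO-labelled jejunum, which is 66% of the 50 and 5.42% of the 609. Of the 40 that rose in cKI ileum (0.339%), 19 had fallen, 47.5% of the 40 and 2.11% of the 901. Calls in the same direction were 2 and 1. The cKI minus control difference was -1.82 ± 0.15 for Suox, -1.75 ± 0.24 for Fabp6, -1.86 ± 0.26 for Slc13a1 and -1.7 ± 0.29 for Slc10a2, all 4 called. The counts of 33 and 19 were 7 and 4 with a stromal covariate and 125 and 111 with array weights. Lists of other cells lay lower in the cKI than in the control ileum. Their medians were -0.81 for stroma, -1.19 for T and NK cells, -0.79 for B and plasma cells and -0.19 for myeloid cells. For class II genes the median was -0.83, against 0.03 over all genes. Pdgfrb and H2-Aa are among the 33. The part of such cells in the opposite calls was not tested beyond that covariate. Below 0 in cKI ileum were 476 of the 609 genes that rose (78.2%), against 43.3% of all genes, and above 0 were 71.7% of the 901 that fell, against 56.7% of all.

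**Figure D5:**
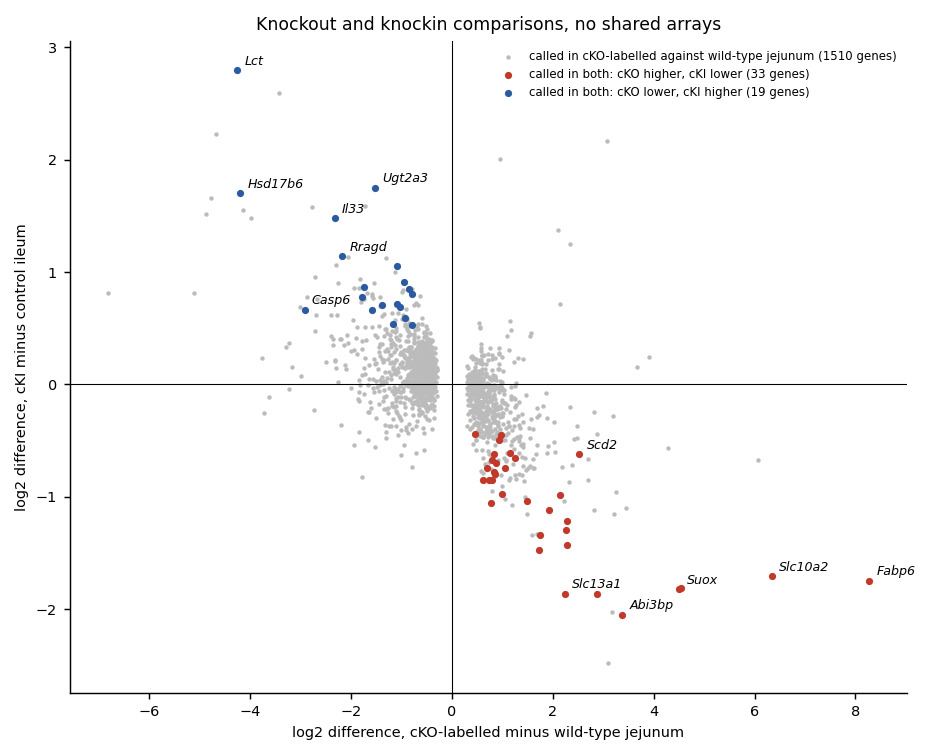
Log2 difference in cKI minus control ileum (y axis) against that in cKO-labelled minus wild-type jejunum (x axis) for the 1510 genes called in the jejunum (grey). Genes called in both with opposite direction are coloured, 33 at lower right (red) and 19 at upper left (blue).

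The control and the wild-type ileum also differed in some of these genes, in the direction of the cKO difference for Plb1 (2.3 ± 0.46), Nr0b2 (0.70 ± 0.20), Slc51a (0.67 ± 0.19), Pdgfrb (0.61 ± 0.13) and Ccnd1 (0.57 ± 0.19) among others. Between the control and the wild-type ileum 110 of the 609 risen genes were higher and 75 lower, and 231 of the 901 fallen genes were higher and 64 lower. Over all tested genes 19.3% were higher and 8.61% lower in that comparison. Among changes of at least 2-fold, 14 of 150 risen genes were called higher there and 22 lower, and 7 of 239 fallen genes lower and 68 higher.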

How the data were processed

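The labels' protocols give Affymetrix Mouse Gene 1.0 arrays, RNeasy Mini RNA of isolated epithelial cells and biotin labelling. The deposited values are on a log2 scale, made by the authors in Partek, per the submitters' processing notes. The version, background correction, normalization and summarization are not given in the sources used here, and the log2 scale was read from the values, which lay between 0.893 and 13.9. Array medians were 4.82 to 5.00. Precision is limited by how many arrays there are.

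Of 35556 transcript clusters, 21789 had 1 gene symbol, 1621 had more than 1, and 12146 had no entry in the annotation table. For the 999 genes with several clusters the one with the highest mean was used. Genes whose largest group mean was at or under 4.91 were removed (8154), which left 11784. All 15 arrays entered 1 linear model of group means with limma 3.58.1 in R 4.3.3 (lmFit, eBayes, two-sided, 10 residual degrees of freedom), with Benjamini-Hochberg adjustment over the genes tested and a threshold of 0.05. The steps were tested on simulated data.

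There were 43 gene lists with 687 entries, 636 distinct genes of which 583 were named by the table. Counts are of tested members. The members, lists and rules were chosen with earlier results of these data known. The naming rule took the GATA factors, the 5 marker genes, the 20 largest rises and 20 largest falls, the 5 members of smallest p in each list and the 10 largest genes of each opposite-direction count with the knockin, which gave 220 genes. A further 16 list members were named after their values were seen. Promoters are RefSeq windows of 300 bases.

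Alternatives were a fit of the 6 jejunal arrays alone, quantile normalization, centring on array medians, no filter, a filter 1 log2 unit higher, means over clusters, array weights, an intensity trend, robust eBayes, the replicate number as a block, a stromal covariate and leaving out each jejunal array. Same-numbered cKO-labelled and wild-type jejunal arrays did not deviate together (correlations 0.185, -0.0247 and -0.0732), so the numbers were not taken to pair them. The main fit treated all 15 arrays as independent, also the same-numbered wild-type jejunal and ileal arrays. Whether those come from the same mouse is not stated and was not tested.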

Additional observations from a re-analysis of the deposited data

Results flagged for a closer look

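Signal in transcript clusters that enter none of the gene counts above also differed between the cKO-labelled and the wild-type jejunum. Of 872 tested clusters with several symbols 49 were called by limma (5.62%), 8 higher and 41 lower. Of 5699 tested clusters absent from the annotation used here 137 were called (2.4%), 49 higher and 88 lower. These clusters are not named.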

How the results depend on the processing

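Counts of changes at least 2-fold stayed within 1.5 times of 150 and 239 under every alternative run, and none of the named genes called reversed. Falls numbered 566 in a fit of the 6 jejunal arrays alone. Leaving out 1 jejunal array gave 442 to 632 rises and 542 to 988 falls, with 542 without wild-type jejunum replicate 1 and 548 without wild-type jejunum replicate 2. It gave 142 to 168 rises and 196 to 252 falls of at least 2-fold, and a Gata4 difference of 0.27 to 0.38. Genes that rose in the cKO-labelled jejunum and fell in cKI ileum were 22 to 45 when 1 array was left out, 21 without the filter, 125 with array weights and 7 with the stromal covariate. For genes that fell and rose in the cKI ileum these were 7 to 22, 9, 111 and 4, and without wild-type jejunum replicates 1, 2 and 3 they were 10, 7 and 10. In the fits of the 6 jejunal arrays and with the block, the cKI comparison was taken from the fit of all arrays. With the replicate number as a block, there were 440 rises and 588 falls, 163 and 253 of them at least 2-fold, with 32 and 20 genes of opposite direction in the cKI, although the numbers did not pair the arrays, and the block left 7 falls among the 17 interferon genes. Of 236 named genes 158 were called, and 133 of these kept their call under every alternative in which they were tested. The other named genes numbered 78, of which 55 were called under none. Why these values moved was not tested. Calls of genes near the level filter are limited by signal over background, which the table does not give.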

Other observations

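Genes of calcium transfer held some rises in the cKO-labelled jejunum. In the calcium and vitamin D list 3 of 5 tested genes rose and 0 fell: S100g, Cldn2, a pore-forming claudin (1.35 ± 0.14), and Atp2b1, the basolateral calcium pump (0.92 ± 0.16). Over all tested genes 5.17% rose and 7.65% fell. Other members, among them the calcium channel Trpv6, did not pass the level filter. Without the filter 3 of 9 rose and 0 fell, and the median was 0.30 instead of 0.92. Cldn2 also counts in the next list. In the list of claudins and tight junction genes 3 of 12 rose and 2 fell, with a median of 0.05, and 1 rose without cKO-labelled jejunum replicate 2 or wild-type jejunum replicate 1. The rises were Cldn2, Cldn8 (0.97 ± 0.29, adjusted p = 0.041) and Tjp3 (0.35 ± 0.09, adjusted p = 0.0169), and the calls of Cldn8 and Tjp3 were lost without either of those arrays. Cldn15, the claudin of the small intestinal sodium pore, fell by 0.55 ± 0.12 (adjusted p = 0.00861). Among keratins, Krt18 rose by 0.87 ± 0.10 (adjusted p = 3.04e-05). In the unfolded protein response list 2 of 15 genes fell and 0 rose, with 1 fall without cKO-labelled jejunum replicates 2 or 3 or wild-type jejunum replicates 1 or 2, among them Herpud1 (-1.11 ± 0.23), a component of protein disposal in the endoplasmic reticulum. Of 19 oxidative phosphorylation genes 4 fell and 0 rose, and 0 fell in a fit of the 6 jejunal arrays alone. These falls were 2 without cKO-labelled jejunum replicate 1 and 1 without cKO-labelled jejunum replicate 2 or wild-type jejunum replicates 1 or 2.

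A few genes, chosen after their values were seen for their wide spread within a group, lay at either of 2 levels in wild-type arrays. B4galnt2, a glycosyltransferase of the gut epithelium, was at 11.8, 11.64 and 11.66 in the cKO-labelled arrays, against 4.93, 4.99 and 11.41 in wild-type jejunum and 5.22, 3.6 and 11.66 in wild-type ileum. Replicate 3 was the high one in both wild-type regions. Pla2g2a, a secreted phospholipase, was at 11.53, 11.88 and 12.59 in the cKO-labelled arrays, against 7.73, 12.37 and 7.46 in wild-type jejunum and 8.31, 12.86 and 8.73 in wild-type ileum. Replicate 2 was the high one in both wild-type regions. Neither was called between the jejunal groups (adjusted p = 0.0993 and 0.136 by limma), and without wild-type jejunum replicate 2 Pla2g2a was called (0.00903). Tmprss15, enteropeptidase, was at 6.58, 3.39 and 7.3 in the cKO-labelled arrays, against 6.91, 7.69 and 8.04 in wild-type jejunum, with cKO-labelled replicate 2 alone below the level filter. Cwc22 was at 7.44, 9.06 and 11.09 in wild-type jejunum and at 7.15, 9.27 and 11.1 in wild-type ileum. Same-numbered arrays of both wild-type regions thus had similar levels of B4galnt2, Pla2g2a and Cwc22. Whether they come from the same mouse is not stated, and the main fit held no term for it.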
